A study of Mus musculus with 5 samples.

Results

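The positive selection response genes are Cd5, Cd69, Egr1, Egr2, Egr3, Nr4a1, Nfatc1, Klf2 and S1pr1, 9 of the 22372 protein-coding genes annotated on the mouse genome mm9. They were chosen by name, as genes that respond to T-cell receptor (TCR) signals during selection in the thymus or that mark exit from it, and the rule that chose them uses no measured value, although earlier results of these data were known when it was set. For each gene, the windows within 1 kb of any of its transcription start sites (TSSs) were taken, and so were those in its gene body and the 10 kb upstream. The H3K4me3 mark was listed near a TSS at 6 of the 9 genes in wild-type (WT) cells, against 31.1% of all genes. In Cxxc1-deficient cells it was listed at 3 of them, against 5.86% of all genes. Cxxc1 itself was listed near a TSS at none of them, which is near its share of 1.96% of all genes.

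Double-positive (DP) thymocytes carry both CD4 and CD8 and wait in the thymic cortex for a TCR signal from self peptide on MHC. A signal of the right strength induces immediate early transcription factors of the Egr and Nr4a families and raises the surface proteins CD69 and CD5, and NFAT factors enter the nucleus on calcium signals. Cells that pass selection later use the factor Klf2 and its target S1pr1, a receptor for sphingosine 1-phosphate, to leave the thymus, while CD69 holds S1pr1 inside the cell. Trimethylation of lysine 4 of histone H3 (H3K4me3) marks promoters, above all those rich in CpG, and Cxxc1 (CXXC finger protein 1) recognises unmethylated CpG and is a subunit of the Setd1 methyltransferase complexes.

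The data were chromatin immunoprecipitations with sequencing (ChIP-seq) of DP thymocytes, with 1 library for each of 5 samples, of which 3 lists of enriched windows were analysed here: Cxxc1, H3K4me3 in WT and H3K4me3 in Cxxc1-deficient cells. Per the study's methods, WT mice were Cxxc1 fl/fl and Cxxc1-deficient mice were Cxxc1 fl/fl hCD2 Cre, in which the Cre acts early in thymocytes and also in other immune cells, and both carried the floxed allele on a C57BL/6 background and were a few weeks old. The labels of the Cxxc1-deficient libraries name a knockout in the title and Cxxc1+/- as genotype, and the title was followed. The Cxxc1 list carries no genotype in its name, the methods describe it as binding in WT cells, and the number of mice behind each library is not given in the sources used here.

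Each list gives 200-bp windows with a value in RPM, the tags in the window scaled to the mapped tags of the library (reads per M). From the spacing of these values, 1 tag was worth between 0.1056 and 0.110 RPM, which puts the depth of the 3 libraries between 9.091 M and 9.47 M tags, and the lowest listed window held 2 tags. A place outside the lists has no value, so "not listed" below means below the calling threshold and not 0. Scaling to the library's own tags can hide a loss of the mark that is shared across the genome. With 1 library per list no difference between genotypes has a replicate check, no test was run, and the 95% intervals are exact Poisson intervals of tag counts that cover counting error only. Of the DP thymocyte marker genes, 5 of 10 had WT H3K4me3 near a TSS (31.1% of all genes), with 2.7 RPM at Cd8a and 1.8 RPM at Cd3e. In Cxxc1-deficient cells 4 of the 10 were listed (5.86% of all genes). Rag1 was listed only in Cxxc1-deficient cells, and Cd4, Cd3d, Rag2 and Themis were listed in neither genotype. Of the markers of other cells, B-cell (4 genes), myeloid (4) and thymic epithelial (4) genes had no H3K4me3 window near a TSS in either genotype, and of 3 erythroid genes Klf1 was listed in WT at 0.9 RPM.

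The sequences before the start sites show how far the genes differ in CpG. RefSeq promoter sequences were at hand for 4 of the 9 genes, Cd5, Egr2, Nr4a1 and Klf2, and each matched mm9 at 1 place. They are printed 5′ to 3′ on the strand of the gene, up to the first annotated exon base, with CpG sites in capitals.
Cd5, chr19:10813465-10813714, minus strand: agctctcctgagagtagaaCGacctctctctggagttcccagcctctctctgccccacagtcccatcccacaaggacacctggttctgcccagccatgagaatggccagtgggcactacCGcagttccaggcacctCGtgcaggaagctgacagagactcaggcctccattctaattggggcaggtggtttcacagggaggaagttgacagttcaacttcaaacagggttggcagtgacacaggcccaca
Egr2, chr10:66997997-66998222, plus strand: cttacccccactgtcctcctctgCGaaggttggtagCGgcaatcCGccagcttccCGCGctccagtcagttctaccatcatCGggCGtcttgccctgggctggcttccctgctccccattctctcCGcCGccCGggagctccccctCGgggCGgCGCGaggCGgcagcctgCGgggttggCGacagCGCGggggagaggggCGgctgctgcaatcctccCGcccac
Nr4a1, chr15:101097027-101097276, plus strand: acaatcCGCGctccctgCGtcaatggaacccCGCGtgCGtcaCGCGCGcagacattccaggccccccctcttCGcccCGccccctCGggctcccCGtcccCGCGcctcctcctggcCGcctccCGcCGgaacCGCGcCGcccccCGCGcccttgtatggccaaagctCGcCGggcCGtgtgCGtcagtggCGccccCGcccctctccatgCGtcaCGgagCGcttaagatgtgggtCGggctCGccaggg
Klf2, chr8:74842711-74842931, plus strand: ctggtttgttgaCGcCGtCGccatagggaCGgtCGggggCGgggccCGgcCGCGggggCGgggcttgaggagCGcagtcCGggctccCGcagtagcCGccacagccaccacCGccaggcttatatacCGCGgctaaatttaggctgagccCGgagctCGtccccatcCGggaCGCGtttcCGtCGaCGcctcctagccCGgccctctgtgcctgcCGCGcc

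The Cd5 stretch held 3 CpG sites in 250 bp, the Egr2 stretch 21 in 226 bp, the Nr4a1 stretch 34 in 250 bp and the Klf2 stretch 28 in 221 bp. The median over 32851 RefSeq promoters was 6 in the 250 bp before the TSS. Cd5 thus lay below the median promoter, and the other 3 genes lay well above it. All 4 had WT H3K4me3 at the TSS, and of these only Klf2 was also listed in Cxxc1-deficient cells.

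The promoters were also searched on both strands for sites of factors known to act on TCR response genes. A CArG box, the site of serum response factor, was found before an inner start of Egr2 at 67000314, at position -72 from it, and in none of the 4 stretches above. A further CArG box lay before the 3 other inner starts that RefSeq gives. The Egr2 stretch that holds it is shown with the CArG box in capitals.
Egr2, inner start, chr10:67000064-67000313, plus strand: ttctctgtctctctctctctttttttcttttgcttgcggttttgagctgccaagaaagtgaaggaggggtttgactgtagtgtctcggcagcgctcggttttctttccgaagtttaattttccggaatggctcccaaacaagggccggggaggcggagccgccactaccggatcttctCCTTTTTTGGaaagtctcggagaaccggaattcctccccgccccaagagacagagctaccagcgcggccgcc

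In all RefSeq promoters of this length, 1.47% held a CArG box. GCGNGGGCG, the site bound by Egr zinc fingers, was found once before Nr4a1 and once before Klf2, and in 4.70% of all promoters. This site itself holds CpG, and the share is not matched for CpG content. The Nr4a1 and Klf2 stretches held 34 and 28 CpG sites, against a median of 6. TGACGTCA, the site of CREB and ATF factors, was found before none of the 4 genes and in 1.55% of all promoters, and the same held for TATAAA, which 12.4% of all promoters held. A match describes the letters only and does not show a bound site.

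In WT cells, H3K4me3 windows lay within 1 kb of a TSS at Cd5, Egr1, Egr2, Egr3, Nr4a1 and Klf2. Among all protein-coding genes the share was 31.1%, so the 6 of 9 was above the background. That background is not matched for CpG content, which was higher in the members (median 73 sites against 41) and went with WT listing over all genes. How much of the difference goes with CpG content was not tested. In Cxxc1-deficient cells the mark was listed at Egr1, Klf2 and S1pr1, 3 of 9 against 5.86% of all genes. The genes therefore fell into 4 classes: 2 were listed in both genotypes (3.99% of all genes), 4 in WT only (27.1%), 1 in Cxxc1-deficient cells only (1.87%) and 2 in neither (67.0%). Of the 6 genes listed in WT, 2 were also listed in Cxxc1-deficient cells, and over all genes listed in WT this share was 12.8%. The plot of listed windows by gene shows where they lay.

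**Figure D1:**
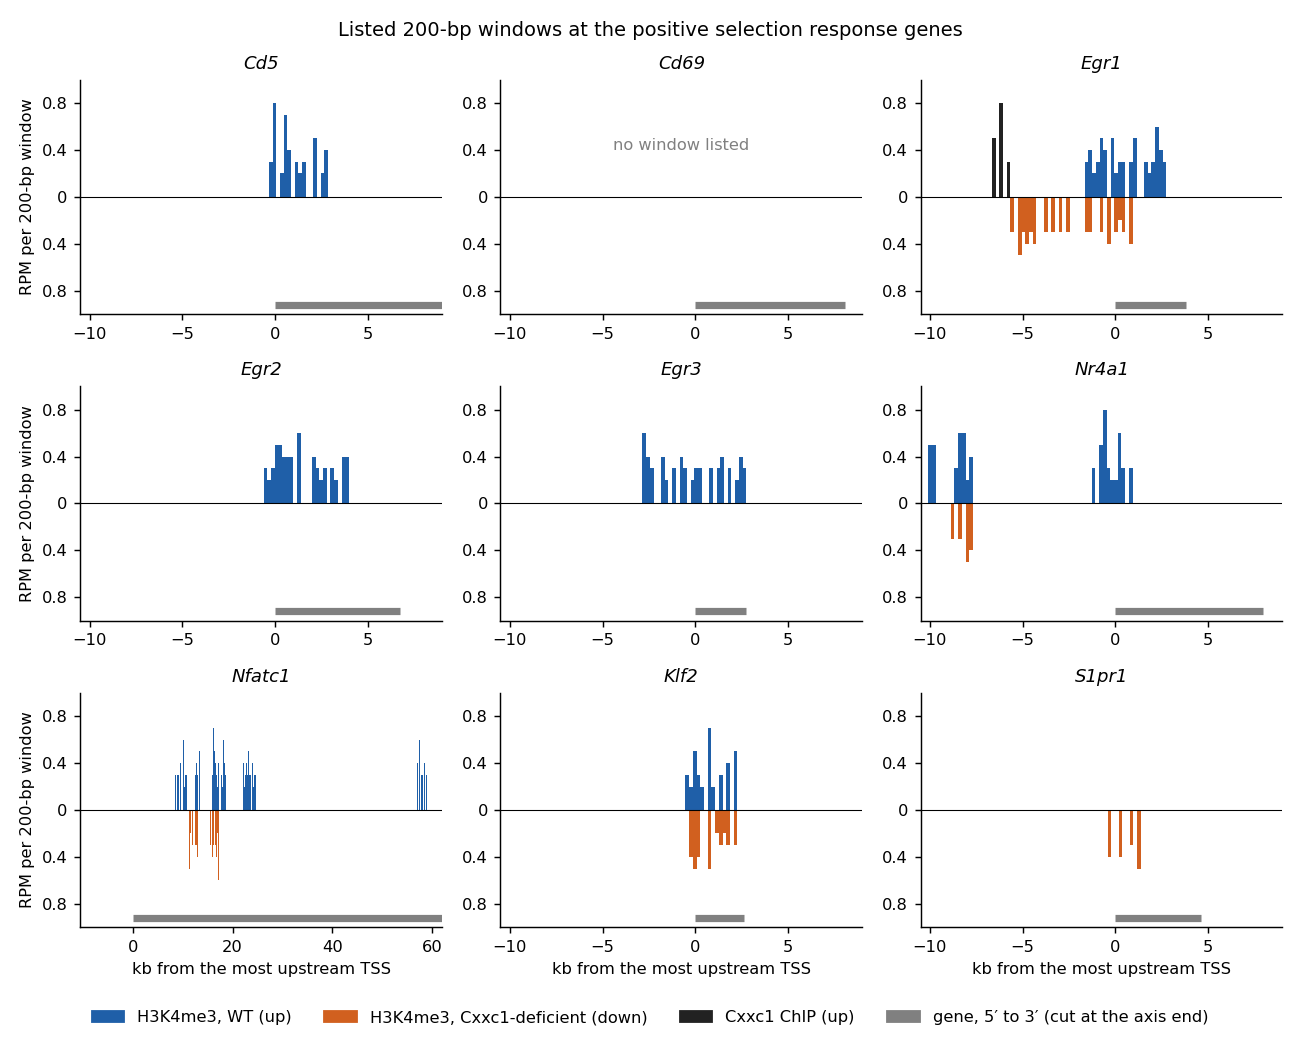
Listed 200-bp windows at each of the 9 genes, by distance in kb from the most upstream TSS (horizontal axis) and RPM per window (vertical axis), with WT H3K4me3 and Cxxc1 drawn upwards and Cxxc1-deficient H3K4me3 downwards. Windows at the TSS appear in both genotypes at Egr1 and Klf2, in WT only at Cd5, Egr2, Egr3 and Nr4a1, and in Cxxc1-deficient cells only at S1pr1. The Cxxc1 bars, all at Egr1, stand next to a Cxxc1-deficient stretch upstream of the gene.

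The WT list holds 14237 peaks and the Cxxc1-deficient list 2979, where a peak joins windows across at most 2 missing ones. When as many of the strongest WT peaks were taken as there are Cxxc1-deficient ones, which kept peaks of at least 3.2 RPM, the same 6 genes were still listed in WT, while the share of all genes dropped to 9.70%. By RPM summed over the whole peak, the WT promoter peaks of these genes were therefore among the stronger ones of the list. Such a sum also rises with the width of the peak. Per kb near the TSS, the genes stood between percentile 45.3 (Egr3) and 93.1 (Egr1) of the genes listed in WT. The median WT peak held 2.3 RPM, and the strongest peak at the TSS of each of the 6 genes held between 3.5 RPM (Nr4a1) and 6.4 RPM (Egr3).

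The surface proteins came out differently from each other. Cd5, a scavenger receptor family protein that dampens TCR signals and whose level follows their strength, spans chromosome 19 from 10792633 to 10813464 on the minus strand (ENSMUSG00000024669.7). Near its TSS the WT value was 2.4 RPM in 5 windows, or 24 tags (15.4 to 35.7), and the Cxxc1-deficient and Cxxc1 lists had no window in the whole region. The WT peak ran from 10810601 to 10813800, 3200 bp with 43 tags, and the highest window, 0.8 RPM, spanned the TSS. The peak reached from the TSS into the first part of the gene, and its width was at percentile 95.2 of the WT list. The nearest Cxxc1-deficient peak lay 48.9 kb away and the nearest Cxxc1 peak 286.9 kb away.

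Cd69, the early activation antigen of the C-type lectin family, spans chromosome 6 from 129217342 to 129225387 on the minus strand (ENSMUSG00000030156.3), and it had no window in any of the lists. The nearest WT H3K4me3 peak lay 257.0 kb away, the nearest Cxxc1-deficient one 2124.6 kb away and the nearest Cxxc1 peak 170.8 kb away. Cd69 was thus the only gene of the 9 for which no list gave a value.

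Among the immediate early transcription factors, Egr1 and Egr3 held the strongest single WT peaks of the 9 genes. Egr1, a zinc finger factor induced within minutes of TCR signals, spans chromosome 18 from 35020861 to 35024638 (ENSMUSG00000038418.6). Near the TSS the WT value was 3.3 RPM in 9 windows, or 33 tags (22.7 to 46.3), and the Cxxc1-deficient value was 1.9 RPM in 6 windows, or 19 tags (11.4 to 29.7). The Cxxc1-deficient value was the lower of the pair, and the counting intervals overlapped. The WT peak ran from 35019201 to 35023600 and covered 72.5% of the gene, whereas the Cxxc1-deficient peak began at the same base and ended at 35021800, covering 24.9%. The Cxxc1-deficient peak thus spanned the TSS and the first part of the gene, and the rest of the gene was not listed in these cells. Of the 18 WT windows, 14 were nearest to the Egr1 TSS, and the others were nearer to a TSS of Gm17507 at the 3′ end of Egr1.

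Egr1 was also the only member with Cxxc1 in its region, 1 of 9 against 11.0% of all genes, which is no more than the background. The Cxxc1 peak ran from 35014201 to 35015200 and held 1.6 RPM, or 15 tags (8.4 to 24.7), with its centre at -6.16 kb from the TSS. A Cxxc1-deficient H3K4me3 peak of 3.4 RPM, or 34 tags (23.5 to 47.5), began at the very next window and ran from 35015201 to 35018400. The WT H3K4me3 list had no window there. The stretch next to the Cxxc1 peak was therefore listed for H3K4me3 only in Cxxc1-deficient cells, and its WT level is unknown. At percentile 96.2 of the Cxxc1-deficient list by RPM, it was stronger than the Cxxc1-deficient peak at the Egr1 TSS, which held 2.5 RPM. The stretch and the Cxxc1 peak did not overlap, and a link between them was not tested.

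Egr2, which restrains and shapes the response with Egr3 and has its 6 annotated start sites between 66998223 and 67001431, spans chromosome 10 to 67004936 (ENSMUSG00000037868.8). Its WT value was 5.5 RPM in 16 windows near these starts, or 55 tags (41.4 to 71.6), and neither of the other lists had a window in the region. The WT windows formed a pair of peaks, each 2000 bp wide. The first, at 66997601 to 66999600 with 3.6 RPM, lay over the most upstream start, and the second, at 67000201 to 67002200 with 2.5 RPM, over the inner starts that follow the CArG box shown above. The mark was hence listed at both groups of starts in WT cells and at neither in Cxxc1-deficient cells.

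Egr3 spans chromosome 14 from 70477252 to 70479964 (ENSMUSG00000033730.2). Its WT value near the TSS was 1.8 RPM in 6 windows, or 18 tags (10.7 to 28.4), the lowest of the 6 genes, and the other lists had no window in the region. The peak, however, was the widest of the members, from 70474401 to 70480400, and it held 6.4 RPM, or 64 tags (49.3 to 81.7). It covered 100% of the gene, and its 6000 bp was at percentile 99.7 of WT peak widths. Most of the Egr3 mark lay outside the zone around the TSS, on both sides of it.

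Nr4a1, the orphan nuclear receptor Nur77, which serves widely as a reporter of TCR signal strength, spans chromosome 15 from 101097277 to 101105223 (ENSMUSG00000023034.6). Near its TSS the WT value was 3.2 RPM in 8 windows, or 32 tags (21.9 to 45.2), and the Cxxc1-deficient list had none. The WT peak ran from 101096001 to 101098200, and its highest window, 0.8 RPM, had its centre at -0.58 kb from the TSS.

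Upstream of Nr4a1 the pattern differed from that at its TSS. A WT peak at 101088601 to 101089600 held 2.1 RPM, or 21 tags (13.0 to 32.1), and a Cxxc1-deficient peak at 101088401 to 101089600 held 1.5 RPM, or 15 tags (8.4 to 24.7). The centres of these peaks lay at -8.18 and -8.28 kb from the TSS, and the 3 windows listed in both genotypes held 12 tags in each. A further WT peak of 1.5 RPM at 101086801 to 101087600 straddled the limit of 10 kb and had no Cxxc1-deficient counterpart. Nr4a1 was therefore listed only for WT at its CpG-rich promoter, and for both genotypes at a place upstream. The window of that place with the highest Cxxc1-deficient value held 0.5 RPM there against 0.2 RPM in WT cells, and its mm9 sequence has 2 CpG sites in 200 bp, in capitals.
Nr4a1 upstream window, chr15:101089201-101089400, plus strand: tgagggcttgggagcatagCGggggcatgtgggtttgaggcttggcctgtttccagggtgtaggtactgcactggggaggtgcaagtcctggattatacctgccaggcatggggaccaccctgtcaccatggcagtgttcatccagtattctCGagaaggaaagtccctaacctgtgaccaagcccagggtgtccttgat

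Nfatc1, the calcium-regulated factor NFAT2, is by far the longest of the genes, on chromosome 18 from 80802944 to 80909810 on the minus strand (ENSMUSG00000033016.9), with starts at 80909810 and 80904912. Neither start had a listed window within 1 kb in any list, although its promoter was the richest in CpG of the 9. The mark lay inside the gene instead, in 5 WT peaks that held 15.0 RPM in all and in 2 Cxxc1-deficient peaks that held 4.5 RPM, with every centre in an intron. Of all genes, 10.2% had WT H3K4me3 in the region and none near a TSS, as Nfatc1 did.

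The Nfatc1 peak nearest to a start was a WT one at 80899001 to 80901400 with 2.7 RPM, centred 4.71 kb downstream of the inner TSS. The strongest, at 80891201 to 80894000 with 4.6 RPM or 46 tags (33.7 to 61.4), overlapped a Cxxc1-deficient peak at 80892601 to 80894400 with 2.5 RPM or 25 tags (16.2 to 36.9). A weaker WT peak at 80896401 to 80897400, with 1.5 RPM, overlapped a Cxxc1-deficient one of 2.0 RPM that ran to 80898600. The WT peaks at 80885201 to 80887800 (3.9 RPM) and 80850801 to 80852800 (2.3 RPM) had no Cxxc1-deficient counterpart. Both Cxxc1-deficient peaks of Nfatc1 hence lay over WT peaks, and 3 of the 5 WT peaks had none.

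Both genes of thymic exit, Klf2 and S1pr1, were listed at the TSS in Cxxc1-deficient cells, against 5.86% of all genes. They were chosen by name, and of 26 maturation and exit genes counted below, 5 (19.2%) were listed there. Klf2, the Krüppel-like factor that drives the programme of quiescence and recirculation, spans chromosome 8 from 74842932 to 74845555 (ENSMUSG00000055148.7). Near its TSS the WT value was 2.4 RPM in 7 windows, or 24 tags (15.4 to 35.7), and the Cxxc1-deficient value was 1.8 RPM in 4 windows, or 18 tags (10.7 to 28.4). The peaks ended at the same base, 74845200, and began 1 window apart, so that each covered 86.5% of the gene. In the 7 windows listed in both, WT held 29 tags and Cxxc1-deficient cells 27, with WT higher in 3, equal in 2 and lower in 2. The whole peaks held 36 tags (25.2 to 49.8) and 31 tags (21.1 to 44.0), with overlapping intervals, and by RPM they stood at percentile 86.9 of the WT list and 93.4 of the Cxxc1-deficient list. A Cxxc1 peak of 2.0 RPM at 74832001 to 74832600 ended 10.3 kb upstream of the TSS and so lay just outside the region.

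S1pr1, the exit receptor, spans chromosome 3 from 115413351 to 115417973 on the minus strand (ENSMUSG00000045092.6), with a further start at 115415567. It had no WT H3K4me3 window in its region, and the nearest WT peak was 292.0 kb away. In Cxxc1-deficient cells 3 windows near the TSS held 1.1 RPM, or 11 tags (5.5 to 19.7), in a peak at 115416601 to 115418400 with 1.6 RPM, or 16 tags (9.1 to 26.0). S1pr1 was the member with the reverse pattern, listed without Cxxc1 and not with it, but its peak was at percentile 19.2 of its list, so it was among the weaker ones. The WT level there is unknown.

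Levels were set against each other per kb of the zone within 1 kb of the starts, since Egr2 has a longer zone. In WT the order was Egr1 with 16.5 tags per kb (11.4 to 23.2), Nr4a1 with 16.0 (10.9 to 22.6), Cd5 and Klf2 with 12.0 each (7.7 to 17.8), Egr2 with 11.2 (8.4 to 14.5) and Egr3 with 9.0 (5.3 to 14.2). The intervals of all neighbours in this order overlapped, and so did those of Egr1 and Egr3 at its ends, so the order is not fixed at this depth. On the same scale in RPM per kb, Egr1 (1.65) stood at percentile 93.1 and Egr3 (0.90) at percentile 45.3 of the 6962 genes listed in WT, whose median was 0.95.

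**Figure D2:**
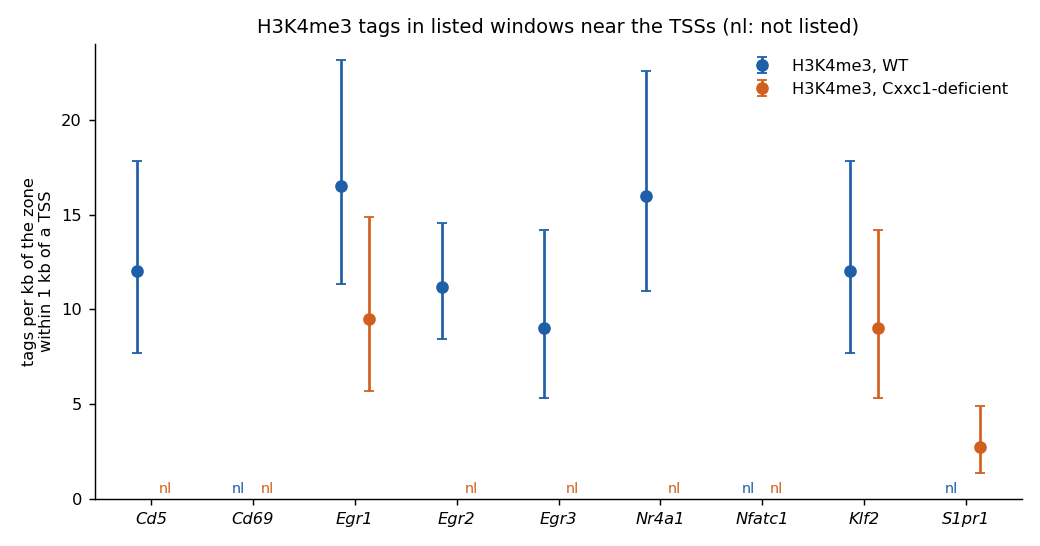
H3K4me3 tags per kb of the zone within 1 kb of a TSS (vertical axis) for each gene, in WT and Cxxc1-deficient cells. Points are tags in listed windows of 1 library, bars are exact 95% Poisson intervals, and nl stands for not listed. Egr1 and Nr4a1 had the highest WT points, 16.5 and 16.0, with bars that overlap those of the other genes.

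Where a gene had windows listed in both genotypes, their summed values were close. At Egr1 the 7 such windows held 23 tags in WT and 21 in Cxxc1-deficient cells, and at Nfatc1 the 9 such windows held 33 and 32. Single windows differed more, such as the Nfatc1 window that starts at 80893601, with 7 tags in WT and 3 in Cxxc1-deficient cells, and the Nr4a1 window printed above, with 2 and 5. Windows enter a list only above the threshold, which limits how far the values of shared windows can differ. Each value is also scaled to the tags of its own library, so close values do not show equal amounts of the mark. The paper reports a lower total H3K4me3 level in Cxxc1-deficient DP thymocytes, measured by immunoassay of histone extracts.

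CpG content was compared next, a property that the rule did not use. The members held a median of 73 CpG sites in the 1 kb centred on the most upstream TSS, against 41 over all genes. Nfatc1 held 106, Egr1 82, Egr3 81, Klf2 75, Nr4a1 73, Egr2 65, S1pr1 51, Cd5 15 and Cd69 11. Over all genes, the share with WT H3K4me3 near a TSS was 2.72% at 0 to 9 CpG sites, 11.5% at 10 to 19, 40.5% at 40 to 59, 51.2% at 60 to 79 and 60.5% at 80 or more. The 6 members of the 2 richest classes were listed in WT with the exception of Nfatc1, S1pr1 in a middle class was not, and of the 2 CpG-poor members Cd5 was listed and Cd69 was not.

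The Cxxc1-deficient share also moved with CpG content, from 0.737% at 0 to 9 sites to 10.5% at 80 or more. Among genes listed in WT, however, the share also listed in Cxxc1-deficient cells was 15.3% in the poorest class and 12.6% in the richest. CpG content thus went with listing in each genotype and hardly with the share of WT-listed genes that were also listed in Cxxc1-deficient cells. Klf2 and Egr1, listed in both, had 75 and 82 sites, and the 4 members listed in WT only had 81 (Egr3), 73 (Nr4a1), 65 (Egr2) and 15 (Cd5). The classes overlapped in CpG content, with Egr3 above Klf2 and the other 3 below both.

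**Figure D3:**
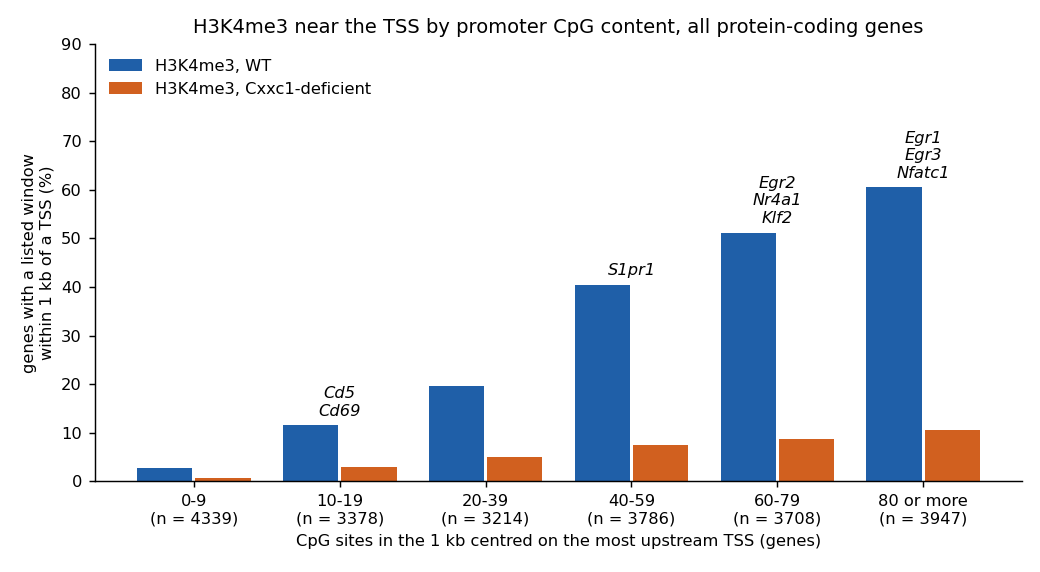
Share of all protein-coding genes with a listed H3K4me3 window within 1 kb of a TSS (vertical axis, percent) by the number of CpG sites in the 1 kb around the most upstream TSS (horizontal axis, number of genes in brackets). Names above the bars show the class of each of the 9 genes and not their values. The WT share goes from 2.72% to 60.5% across the classes.

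Relatives of the 9 genes and other genes of the same responses were counted from fixed lists. Of 18 genes of the same families or gene clusters, 13 were listed near a TSS in WT (72.2%, against 31.1% of all genes) and 1 in Cxxc1-deficient cells (5.56%, close to the 5.86% of all genes), the Cd5 paralogue Cd6, at 3.9 RPM for WT and 1.2 RPM without Cxxc1. Nr4a2 (5.0 RPM) and Nr4a3 (1.7 RPM) were listed in WT only, like Nr4a1, and Nfatc2 (4.7 RPM) and Nfatc3 (2.4 RPM), the other NFAT factors of thymocytes, had the mark at a TSS in WT, unlike Nfatc1. Egr4 was listed in neither genotype. The receptors S1pr2, S1pr3 and S1pr4 were listed in WT only, with 1.5 to 1.8 RPM, which is the reverse of S1pr1, and S1pr5 was listed in neither genotype.

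Of 36 other TCR response genes, 26 (72.2%) were listed in WT and 9 (25.0%) in Cxxc1-deficient cells. Those listed in both were 7, among them the AP-1 genes Junb (4.1 and 2.0 RPM) and Jund (5.6 and 2.7 RPM), the phosphatase gene Dusp2 (4.6 and 1.3 RPM) and the cytokine signal inhibitor Socs1 (5.4 and 3.5 RPM). Gata3, a factor of the CD4 lineage, was the only gene of these 7 with the lower value in WT, at 1.8 RPM for WT against 2.9 RPM without Cxxc1. Listed in WT only were 19, including Fos (3.6 RPM), Jun (4.2 RPM), Ier2 (3.5 RPM) and Id3 (3.8 RPM), the last of these a target of Egr factors. Irf4 and Rel, with 2.3 and 2.0 RPM, were the 2 listed in Cxxc1-deficient cells only, as S1pr1 was.

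Of 26 maturation and exit genes, 14 (53.8%) were listed in WT and 5 (19.2%) in Cxxc1-deficient cells. For Foxo1, the factor upstream of Klf2, the WT value was 4.4 RPM and the Cxxc1-deficient value 2.1 RPM, and for Coro1a, an actin regulator needed for exit, they were 4.9 and 1.1 RPM. Itgal, the integrin chain of LFA-1, went the other way, at 0.6 RPM for WT and 1.9 RPM without Cxxc1. Cxcr4, which keeps DP thymocytes in the cortex, held 4.8 RPM in WT and was not listed in Cxxc1-deficient cells. Ccr7 and Il7r, which rise in mature thymocytes, were listed in neither. The counts of these lists stand in no test. The WT share of each list was above the 31.1% of all genes, and the Cxxc1-deficient share was above the 5.86% of all genes in the lists of other TCR response genes and of maturation and exit genes. These shares are not matched for CpG content. The median number of CpG sites was 63 for the relatives, 65 for other TCR response genes and 21 for maturation and exit genes. Over all genes it was 41.

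**Figure D4:**
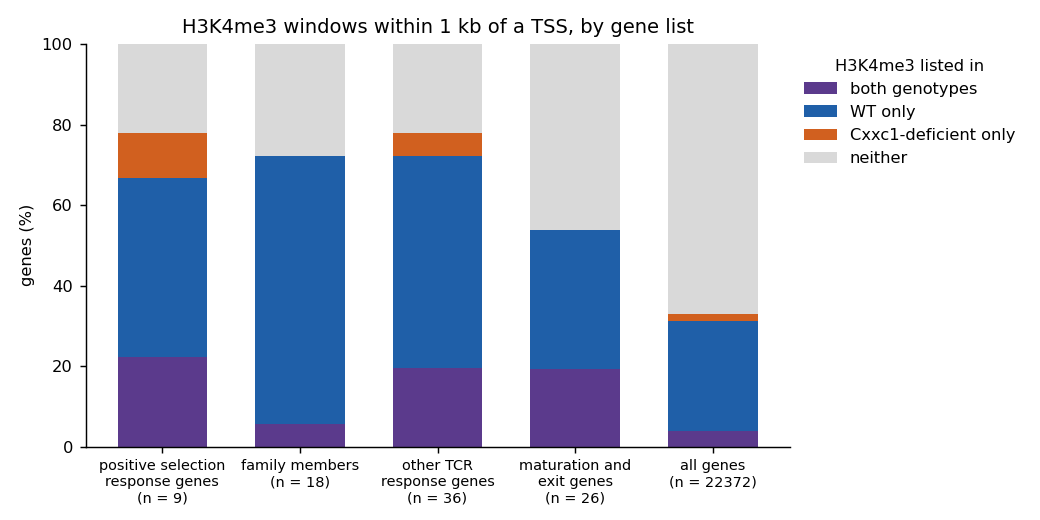
Share of genes (vertical axis, percent) with H3K4me3 windows within 1 kb of a TSS in both genotypes, WT only, Cxxc1-deficient cells only or neither, for the 9 genes, the fixed lists and all protein-coding genes. Of the 9 genes 6 were listed in WT, against 31.1% of all genes.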

How the data were processed

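Per the labels and the study's methods, the authors obtained 50-bp reads with CASAVA 1.8.2, mapped them to mm9 (the aligner is not given in the sources used here), kept unique reads and called islands with SICER 1.1, with input and Cxxc1-deficient ChIP as controls. Which control served H3K4me3 is not stated. The authors deposited the 200-bp windows of the islands with values in RPM at 1 decimal.

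Windows were joined to protein-coding transcripts of GENCODE vM1 on NCBIM37, the assembly of mm9 (no window passed a chromosome end), by at least 1 shared bp. The RPM of 1 tag was inferred from the decimals that occur (0.1056 to 0.1062 for H3K4me3 and 0.1094 to 0.110 for Cxxc1), and each window was converted to tags. RefSeq promoters (GRCm38.p6) were placed by exact match. Python 3.11.15, numpy 2.4.6, pandas 2.3.3, scipy 1.17.1 and pysam 0.24.0 were used, and functions were tested on simulated data. With 1 library per list no test was run. The members and lists were chosen with earlier results of these data known. Every member was named, as were genes of the fixed lists.

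Alternatives were 0.5 kb and 2 kb from the TSS, the most upstream TSS only, windows of at least 4 tags, 0 and 50 kb upstream, windows nearest to the member's own TSS, and joining across 0 or 5 missing windows. An equal number of strongest WT peaks was added after seeing the data. The input and the Cxxc1-deficient Cxxc1 ChIP were not analysed here.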

Additional observations from a re-analysis of the deposited data

How the results depend on the processing

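Of 51 alternative values for 16 results, 40 stayed within 1.5 times the count or inside the 95% Poisson interval of the sum, and 11 moved out. The genes listed near a TSS in each list were the same under every alternative tried for them. Without upstream sequence 0 members had a Cxxc1 window in the region, and with 50 kb upstream 2 did, against 18.3% of all genes. WT sums near the TSS moved at 0.5 kb to 1.7 RPM (Egr1), 1.1 RPM (Egr3) and 1.5 RPM (Klf2), at 2 kb to 5.0 RPM (Egr1) and 3.7 RPM (Egr3), and with the most upstream TSS only to 3.0 RPM (Egr2), as these zones hold fewer or more windows by construction. Joining across 0 missing windows split the members' peaks into 48 in WT, 28 in Cxxc1-deficient cells and 3 for Cxxc1. Peaks of the members held 15 to 64 tags, which limits any statement on a single gene. No paired analysis was possible because the lists came from single libraries.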

Other observations

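Among the remaining genes of the fixed lists, those with the highest WT value per kb near a TSS were Socs1 (2.70 RPM per kb), Cxcr4 (2.40), Dusp2 (2.30), Ier3 (2.30) and Foxo1 (2.20), all above Egr1. Of these, Socs1, Dusp2 and Foxo1 were also listed in Cxxc1-deficient cells. The transcription factor genes Klf3, Klf4, Klf6 and Klf13 were listed in WT only, with 4.5, 1.8, 3.8 and 5.4 RPM, whereas Klf2 was listed in both genotypes.

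Cxxc1 windows lay in the region of 6 of 36 other TCR response genes, 4 of 26 maturation and exit genes and 2 of 18 relatives, against 11.0% of all genes. Among them, Cd27, a costimulatory receptor gene, had Cxxc1 within 1 kb of a TSS at 2.4 RPM and WT H3K4me3 there at 1.7 RPM. Among the genes with Cxxc1 in the region, Gata3 and Fam65b were listed for H3K4me3 near a TSS in both genotypes, Rel in Cxxc1-deficient cells only, and Tnfrsf9 in neither.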
